A study of Mus musculus with 2669 samples.

Results

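The neurons and the dividing cells of the medial ganglionic eminence (MGE) of mouse embryos at E14.5 were compared with each other within the microfluidic chip on which both had been captured. Cells came from CD1 embryos, and the labels give no treatment and no altered allele for any group. The dorsal part of the MGE (dMGE) was dissected for 8 chips and the ventral part (vMGE) for 5 chips, and every cell gave its own full-length, poly-A primed library on a Fluidigm C1 chip made for small cells. Of the 2669 cells of the series, 879 came from the MGE at E14.5 and 870 of them held at least 1000 detected genes and 50000 counts. A cell was called dividing when 2 or more of Top2a, Mki67, Ccnb1, Bub1 and Plk1 reached 10 CPM (a gene's counts scaled to a total of 1000000 in that cell). A cell was called a neuron when Tubb3 and Dcx each reached 50 CPM while Top2a and Mki67 each stayed under 10 CPM. These gates held 456 dividing cells (52.4% of the cells that passed) and 130 neurons (14.9%), 586 cells in all. A further 282 cells met neither gate, and 2 cells, both on chip 193, met both and were left out of either class. The dMGE gave 249 dividing cells and 78 neurons, and the vMGE gave 207 and 52. The same gates were applied to MGE cells at E12.5 (13 chips, 666 members) and to cells of the caudal ganglionic eminence (CGE) at E14.5 (5 chips, 238 members), both from CD1 embryos as well. The labels name no embryo or litter, so the chip is the replicate, and p-values measure only the spread between chips, which may be technical.

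The MGE is a proliferative bulge of the embryonic ventral forebrain that makes GABAergic interneurons of the cortex and several neuron types of the basal forebrain. Radial glia divide along its ventricle, intermediate progenitors divide in the subventricular zone above, and their daughters leave the cell cycle, switch on doublecortin (Dcx) and the neuronal tubulin Tubb3, and migrate away. The transcription factor Nkx2-1 marks MGE progenitors, and its target Lhx6 is switched on as cells leave the cycle and is kept by the interneurons.

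Both classes were chosen by the measured CPM of these 7 gate genes, so their levels are given as a description only. Top2a, the topoisomerase that untangles replicated chromosomes, had a median of 1223 CPM per dividing cell and 0.922 CPM per neuron. Mki67, a coat protein of mitotic chromosomes, had medians of 457 and 0 CPM. Dcx, a microtubule-binding protein of migrating neurons, had medians of 71.8 CPM in dividing cells and 1808 CPM in neurons, and Tubb3 had medians of 818 and 3774 CPM. The dividing class was therefore not free of the neuronal transcripts: 207 of its 456 cells (45.4%) reached 50 CPM for both Tubb3 and Dcx. The edges of the gates were thinly filled for neurons, with 1 neuron whose lower value of Tubb3 and Dcx lay between 50 and 60 CPM and 2 cells with low Top2a and Mki67 that missed the gate at 40 to 50 CPM. More cells lay near the dividing threshold, with 27 dividing cells whose second-highest gate gene lay between 10 and 20 CPM and 39 cells outside at 5 to 10 CPM. Of the neurons, 109 had none of the 5 division genes at 10 CPM and 21 had 1 of them.

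**Figure D1:**
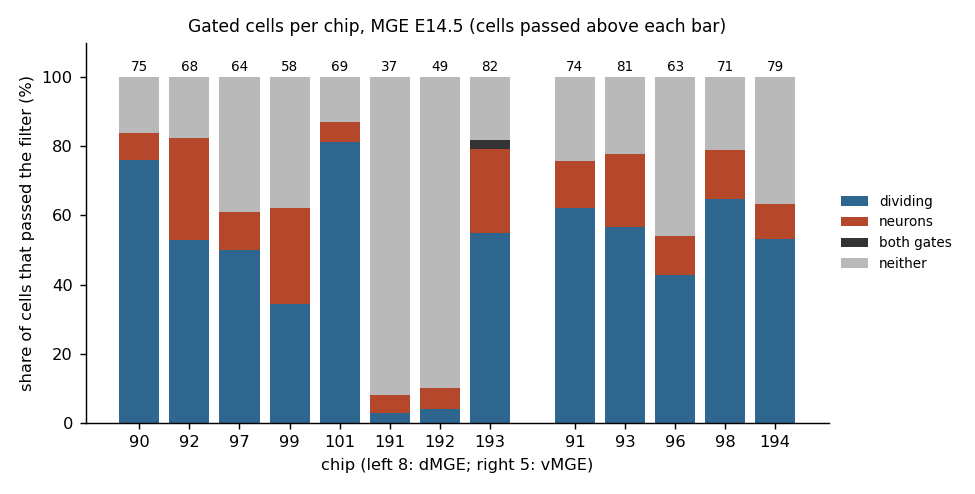
Stacked bars give the share, in percent of the cells that passed the filter (their number stands above each bar), of dividing cells, neurons, cells in both gates and cells in neither, for each of the 13 E14.5 MGE chips. Chips 191 and 192 stand apart, with 90.7% of their cells in neither class against 13.04% to 46.0% on the 11 other chips.

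Neurons made up 13.96 ± 4.25% of the cells per chip in the vMGE (SD, n = 5 chips) and 14.7 ± 10.5% in the dMGE (n = 8), a difference smaller than the spread between chips (exact permutation p = 0.901). Dividing cells made up 55.95 ± 8.61% in the vMGE and 44.5 ± 29.3% in the dMGE (exact permutation p = 0.446). On chips 191 and 192 of the dMGE 78 of 86 cells fell in neither class, and without them the dividing share of the vMGE was 2.29 percentage points lower, not higher. Across both regions, neurons were 14.4 ± 8.41% of cells at E14.5 and 5.88 ± 6.78% at E12.5 (13 chips each, permutation p = 0.00888, adjusted over 4 share tests 0.0355). All 13 E12.5 chips are numbered 160 or higher, against 4 of the 13 E14.5 chips, and among chips from 160 on the difference was 5.63 percentage points (permutation p = 0.203). Leaving out a single chip brought the adjusted p above 0.05 for 12 of the 26 chips (92, 93, 99 and 193 at E14.5; 170, 171, 177, 180, 181, 183, 195 and 196 at E12.5), to at most 0.0725.

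Gene levels were compared on the 6 chips that held at least 10 cells of each class: chips 92, 99 and 193 of the dMGE and chips 91, 93 and 98 of the vMGE. They held 93 neurons (10 to 20 per chip) and 239 dividing cells (20 to 46 per chip). Counts were summed per chip and class, to between 4611892 and 18663357 counts for neurons and between 16256793 and 28443121 for dividing cells. Fewer genes were detected per neuron (chip medians of 2471 ± 174, n = 6) than per dividing cell (3092 ± 295), on 6 of 6 chips (exact sign-flip permutation p = 0.03125, the smallest this design allows, adjusted over 3 tests 0.0938). Counts per cell (599333 ± 299895 in neurons, 565702 ± 164652 in dividing cells) and the mitochondrial share of counts (2.64 ± 0.649% and 3.03 ± 1.73%) differed by less than the spread between chips (exact permutation p = 0.719 and 0.781). The part of detected genes in the gene results was not tested. After every cell was thinned to 50000 counts, chip 98 kept 6 neurons and left the test, and on the 5 other chips 40 genes passed in place of 120, 30 of them among those 120. At full depth without chip 98, 18 genes passed.

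Transcripts that define other cell types were counted as summed levels per chip. The 10 pallial excitatory genes, none of which passed the filter on low counts, summed to between 0 and 35.5 CPM per chip in neurons and between 0.289 and 12.8 CPM in dividing cells. Neurod1, Neurod2, Neurod6, Slc17a7, Emx1, Emx2 and Neurog1 had no count in neurons. The 8 microglial genes summed to 0 to 9.9 CPM in neurons and 0.11 to 149.97 CPM in dividing cells, with Csf1r, C1qb, C1qc and Ptprc at 0 in neurons. The 8 endothelial genes summed to 0 to 3.38 CPM and 0 to 103.5 CPM, with Esam and Ly6c1 at 0 in neurons. Of the 14 striatal and lateral eminence genes, Drd1, Drd2, Ppp1r1b, Tac1 and Ikzf1 had no count in either class. Sums of the 7 oligodendrocyte precursor genes (0 to 44.7 CPM in neurons, 22.5 to 78.2 CPM in dividing cells), the 9 pericyte and fibroblast genes (0.262 to 15.1 and 0.343 to 31.7 CPM) and the 7 erythroid genes (0.376 to 40.7 and 9.12 to 251.5 CPM) overlapped between the classes. Their medians were 0.318 and 52.5 CPM for the oligodendrocyte precursor genes, which were higher in neurons on 1 of 6 chips, 3.1 and 9.26 CPM for the pericyte and fibroblast genes, and 18.2 and 20.2 CPM for the erythroid genes. The 10 cholinergic and ventral genes in the table summed to 0.262 to 648 CPM in neurons and 40.5 to 229.7 CPM in dividing cells. The summed level of the striatal list overlapped between neurons (191.2 to 2078 CPM) and dividing cells (463.5 to 961 CPM), as did that of the 8 CGE genes (170.8 to 1942 and 186.9 to 744 CPM). The 12 genes of dissociation and immediate early response ranged more widely, from 29.2 to 4265 CPM in neurons and from 46.7 to 1227 CPM in dividing cells. No member of these lists passed the test between the classes, and their part in the results was not tested.

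Between dividing cells and neurons 20 of 36 genes of G2 and M phase fell, as did the radial glial genes Fabp7 and Mfge8, while the interneuron genes Maf, Npy and Nxph1 and the tubulin gene Tuba1a rose. Levels from here on are CPM of the chip sums, scaled with TMM factors, and are given as the lowest, the median and the highest of the 6 chips. Changes are log2 fold changes of neurons over dividing cells, shrunk by a prior count. The value after ± is an approximate standard error, the size of the unshrunk change divided by the square root of the test's F value. Where a class has almost no counts, it is not the error of the shrunk change beside it. Adjusted p-values are those of edgeR's quasi-likelihood test with the chip as block and Benjamini-Hochberg adjustment over all genes tested. Of 9680 genes tested, 120 (1.24%) passed an adjusted p of 0.05: 17 (0.176%) were higher in neurons and 103 (1.06%) were lower. The median log2 change over all genes tested was -0.75, and 6742 of the 9680 changes were negative. For 269 genes (2.78%) the 6 neuron values and the 6 dividing values did not overlap, 17 of them (0.176%) higher and 252 (2.6%) lower in neurons. With equal cell numbers of both classes on each chip the median change was -0.18, and 1 gene was called higher and 31 lower. The count of calls also moved with the chips: leaving out any of chips 91, 92, 93, 98 and 99 left 1 or 2 genes higher and 7 to 23 lower, and leaving out chip 193 left 18 and 61. Shcbp1, Bub1b, Mastl, Smc4, Lbr and Tuba1a passed whichever chip was left out.

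**Figure D2:**
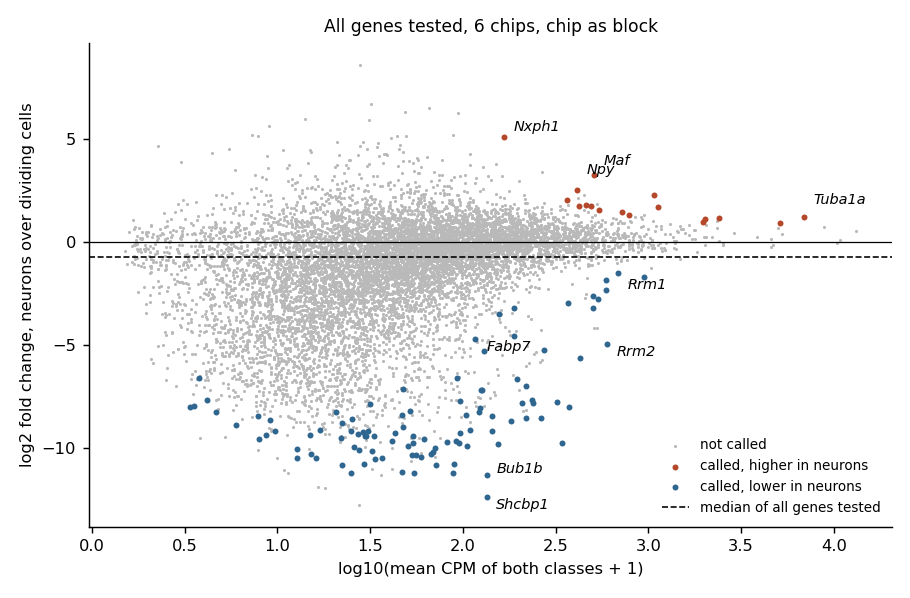
Each point is 1 of the 9680 genes tested, placed by the log10 of its mean level in both classes (CPM + 1) and by its log2 change in neurons over dividing cells; the dashed line is the median change of -0.75. The 103 genes called lower (blue) reach changes below -12 and the 17 called higher (red) lie between 0.89 and 5.07.

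The genes of late cell cycle and mitosis were the largest block of genes that fell. Of 36 listed G2 and M phase genes, all 36 were tested, 20 fell and none rose, against 1.06% of all genes tested that fell. Their median change was -7.81, against -0.75 over all genes. The values of the classes did not overlap for 27 of them, against 2.78% of all genes tested. The direction of this list is no independent finding, since the gate used 5 genes of the same kind and neurons had to be low in Top2a and Mki67. Among mitotic kinases and cyclins 7 of 9 fell. Bub1b, a kinase of the spindle checkpoint, ran at 0, 0 and 1.9 CPM in neurons and 24.8, 216 and 539 CPM in dividing cells (log2 change -11.31 ± 1.27, adjusted p = 0.0049). Ttk, which starts the same checkpoint, ran at 0, 0.131 and 5.57 CPM in neurons and 118, 169 and 237 CPM in dividing cells (log2 change -9.68 ± 1.46, adjusted p = 0.0154). Aurkb, the kinase of the chromosomal passenger complex, ran at 0, 0.0627 and 17.2 CPM and 45.8, 178 and 461 CPM (log2 change -9.93 ± 1.69, adjusted p = 0.0267). For all of these the highest neuron chip lay below the lowest dividing chip. Cdc25c, the phosphatase that activates Cdk1 at mitotic entry, also fell (log2 change -8.47 ± 1.67, adjusted p = 0.0347), although its highest neuron value of 25.6 CPM reached past its lowest dividing value of 22.4 CPM.

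Among kinetochore and centromere genes 4 of 8 fell, against 1.06% of all genes tested. Cenpf, a large protein of the outer kinetochore, ran at 32.3, 164 and 283 CPM in neurons and 389.9, 932 and 1365 CPM in dividing cells (log2 change -2.80 ± 0.50, adjusted p = 0.0294). The groups did not overlap, and Cenpf was still above 30 CPM in the neurons of every chip. Ndc80, which ties kinetochores to microtubules, ran at 0.0655, 0.914 and 10.6 CPM in neurons and 95.6, 257 and 315 CPM in dividing cells (log2 change -8.09 ± 1.47, adjusted p = 0.0294). Its partner Spc25 ran at 0.125, 0.5 and 88.6 CPM and 153, 502 and 884 CPM (log2 change -8.54 ± 1.26, adjusted p = 0.0145), the highest neuron value being that of chip 193. Among genes of the spindle and of cytokinesis 8 of 12 fell. Kif11, the motor that pushes spindle poles apart, ran at 0.131, 3.08 and 35 CPM in neurons and 219.7, 441 and 767 CPM in dividing cells (log2 change -7.69 ± 1.13, adjusted p = 0.0145). Aspm, a spindle pole protein whose human gene is mutated in primary microcephaly, ran at 0.26, 2.33 and 79.5 CPM and 131, 558 and 1783 CPM (log2 change -8.04 ± 1.25, adjusted p = 0.0192). The classes did not overlap for either gene, and a single chip, chip 91, gave the highest neuron value of Aspm. Kif20b, a kinesin of cytokinesis, changed by -7.02 ± 1.13 (adjusted p = 0.0235) and Anln, an actin-binding protein of the contractile ring, by -9.56 ± 1.67 (adjusted p = 0.0279). Among the 7 genes of anaphase and mitotic exit only Espl1, the protease that cleaves cohesin, passed. Its neurons held 2 counts in all against 4166, a ratio per library of 859-fold (95% counting interval 238 to 7095), with an adjusted p of 0.0347. The activator of the anaphase-promoting complex Cdc20 had separate groups, at 0, 0.193 and 34.8 CPM in neurons and 91.7, 161 and 309 CPM in dividing cells, and did not pass (log2 change -8.49 ± 1.98, adjusted p = 0.0632).

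Promoter sequences are shown for genes of this group because many late cell cycle promoters are known to carry the cell cycle genes homology region (CHR), bound by the DREAM complex in resting cells and by B-MYB complexes in dividing ones, together with CCAAT boxes bound by NF-Y. In RefSeq promoters of build GRCm38.p6, taken as the 300 bases from 250 before to 50 after each gene's start, the CHR core TTTGAA was searched on both strands together with CCAAT, and neither motif contains the other. Each line gives the 180 bases from 150 before to 30 after the start, 5′ to 3′ on the gene's strand, with a match to either motif in capitals.
Aspm, chr1:139454623-139454802, plus strand: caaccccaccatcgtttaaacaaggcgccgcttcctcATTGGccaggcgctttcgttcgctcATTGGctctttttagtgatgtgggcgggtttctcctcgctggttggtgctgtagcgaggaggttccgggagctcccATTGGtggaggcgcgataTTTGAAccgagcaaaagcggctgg
Cenpf, chr1:189688057-189688236, minus strand: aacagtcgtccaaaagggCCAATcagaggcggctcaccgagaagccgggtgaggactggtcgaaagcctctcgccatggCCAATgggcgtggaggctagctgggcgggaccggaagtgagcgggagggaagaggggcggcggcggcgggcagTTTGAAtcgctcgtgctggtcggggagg
Ttk, chr9:83834539-83834718, plus strand: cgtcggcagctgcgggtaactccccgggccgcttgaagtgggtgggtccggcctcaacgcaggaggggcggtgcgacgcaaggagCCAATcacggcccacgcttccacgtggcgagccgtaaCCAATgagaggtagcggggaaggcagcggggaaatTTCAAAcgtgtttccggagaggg
Kif11, chr19:37376232-37376411, plus strand: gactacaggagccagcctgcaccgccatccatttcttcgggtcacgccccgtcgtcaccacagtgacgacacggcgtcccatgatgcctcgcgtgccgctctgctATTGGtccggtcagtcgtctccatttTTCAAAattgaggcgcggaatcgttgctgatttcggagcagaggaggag
Rrm2, chr12:24708104-24708283, plus strand: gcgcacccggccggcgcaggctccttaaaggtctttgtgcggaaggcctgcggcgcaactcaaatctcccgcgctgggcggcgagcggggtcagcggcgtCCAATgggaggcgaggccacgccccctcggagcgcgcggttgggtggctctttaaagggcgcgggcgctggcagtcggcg
Tuba1a, chr15:98953472-98953651, minus strand: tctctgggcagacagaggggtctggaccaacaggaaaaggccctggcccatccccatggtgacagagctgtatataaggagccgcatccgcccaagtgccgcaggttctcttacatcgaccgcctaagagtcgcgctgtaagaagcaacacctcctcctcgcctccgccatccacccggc
Aspm, Cenpf, Ttk and Kif11, whose levels in neurons are given above, each hold a CHR within 20 bases of the start and 1 or more CCAAT boxes further upstream. Rrm2, a replication gene that also fell, holds a CCAAT box and no CHR in the bases shown, and Tuba1a, which rose, holds neither. Over the 20 promoters found for 18 of the 20 G2 and M phase genes that fell, 17 (85%) held a CHR, 15 (75%) a CCAAT box and 14 (70%) both. Over the 95 promoters found for 86 of the 103 genes that fell, 42 (44.2%) held a CHR and 65 (68.4%) a CCAAT box. Over the 17 promoters of 11 of the 17 genes that rose, 5 held each motif (29.4%). The CHR stood in 11.7% of 9490 promoters of tested genes and in 17.9% of all 32851 promoters, and the CCAAT box in 38.9% and 37.4%. Other motifs searched in the same windows on both strands were a pair of E2F sites, the GC box GGGCGG and the E-boxes CAGCTG and CATCTG. In the 20 promoters of G2 and M phase genes that fell E2F sites stood in 0%, GC boxes in 75% and E-boxes in 10%, and in the promoters of tested genes they stood in 3.29%, 64.8% and 23.5%. A match describes the letters of the window and shows no binding in these cells.

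Genes of DNA replication and the G1/S transition were lower as well. Of 32 tested, 4 fell, against 1.06% of all genes, and none rose. Their median change was -4.28, against -0.75 over all genes, and all 32 changes were negative. Like that of the G2 and M phase list, this direction is no independent finding, since the gates chose cells by genes of division. The 4 that fell make or handle nucleotides and new DNA. Rrm2, the regulated subunit of ribonucleotide reductase, ran at 5.27, 26.6 and 164 CPM in neurons and 517, 1157 and 1886 CPM in dividing cells (log2 change -4.94 ± 0.89, adjusted p = 0.0294). Rrm1, its stable partner, fell less, from 443, 861 and 2120.1 CPM in dividing cells to 155, 323 and 792 CPM in neurons (log2 change -1.52 ± 0.26, adjusted p = 0.0267), with overlapping chips. Neurons thus kept Rrm1 at 155 CPM or more on every chip while Rrm2 was at 164 CPM or less. Uhrf1, which carries DNA methylation through replication, changed by -4.57 ± 0.82 (adjusted p = 0.0294) and Prim1, a primase subunit, by -3.48 ± 0.75 (adjusted p = 0.0481). None of the 10 genes of the replicative helicase and origin licensing passed. Mcm5, a helicase subunit, ran at 0, 4.7 and 68 CPM in neurons and 147, 197 and 261 CPM in dividing cells (log2 change -5.56 ± 1.66, adjusted p = 0.16), without overlap. None of 8 genes of G1/S control passed either: Ccne2, a cyclin of S phase entry, changed by -6.20 ± 1.92 (adjusted p = 0.178), Ccnd2 by -0.85 ± 0.28 (adjusted p = 0.208) and Ccnd1 by -0.39 ± 1.68 (adjusted p = 0.958). Ccnd2, a D-type cyclin of neural progenitors, still stood at 209, 814 and 3018 CPM in neurons, against 543, 1859 and 2597 CPM in dividing cells.

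Several of the largest decreases were genes outside the phase lists with almost no counts in neurons, where a fitted change depends on the prior count. The genes given with 3 or fewer counts in neurons, here and in other paragraphs, passed the filter on low counts through their dividing sums alone. Their calls therefore depend on a filter met only in the class where they are high. Shcbp1, a protein of the midbody, held 3 against 39444 counts in neurons and dividing cells, a ratio per library of 5422-fold (95% counting interval 1855 to 26293) with an adjusted p of 0.00319. Ddias held 2 against 13621 counts, a ratio of 2809-fold (95% counting interval 777 to 23194), and Brip1, a DNA helicase of repair at stalled forks, held 2 against 13174 counts, a ratio of 2716-fold (95% counting interval 752 to 22433). Poc1a, a centriole protein, held 3 against 6918 counts, a ratio of 951-fold (95% counting interval 325 to 4612), with no count on 5 of the 6 neuron chips. These intervals cover counting error alone, and reads of a library without molecular identifiers are not independent molecules. Mastl, the kinase that blocks the phosphatase opposing Cdk1, held 4 against 25185 counts and ran at 31.7, 188 and 272 CPM in dividing cells (log2 change -11.23 ± 1.35, adjusted p = 0.0049). Dtl, which targets replication factors for degradation, changed by -10.83 ± 1.83 (adjusted p = 0.0262) and Asf1b, a histone chaperone of replicating cells, by -10.80 ± 1.95 (adjusted p = 0.0294). Smc4, the core ATPase of condensin, and Lbr, a receptor of the inner nuclear membrane, were chosen for the text after their values were seen, since they passed whichever chip was left out. Smc4 ran at 31.5, 89.7 and 310.1 CPM in neurons and 451, 898 and 1185 CPM in dividing cells (log2 change -3.20 ± 0.43, adjusted p = 0.0143), and Lbr at 8.89, 154 and 263 CPM and 54.5, 934 and 1357 CPM (log2 change -2.62 ± 0.37, adjusted p = 0.0145). The chips of the classes overlapped for Lbr alone, on account of its level of 54.5 CPM in the lowest dividing chip.

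Of 27 chromatin genes tested, 3 fell, against 1.06% of all genes, and none rose. Their median change was -0.95, close to the -0.75 of all genes. The 3 were Uhrf1, Hmgb2 and H2afz. Hmgb2, a chromatin protein abundant in cycling cells, ran at 23, 100.5 and 149 CPM in neurons and 354, 641 and 1018 CPM in dividing cells (log2 change -2.98 ± 0.47, adjusted p = 0.0223). H2afz, which encodes the histone variant H2A.Z, ran at 249, 389.9 and 855 CPM and 871, 1465 and 1880.4 CPM (log2 change -1.69 ± 0.29, adjusted p = 0.0279). Both separated the classes fully, yet both stayed measurable in every neuron sum, and both have near-identical copies or pseudogenes in the mouse genome, so their counts are uncertain. Of 11 cell cycle inhibitors and pocket proteins tested, 1 fell, against 1.06% of all genes. That gene, Cdkn2c, which encodes the CDK4 and CDK6 inhibitor p18, held 1 against 1429 counts, a ratio of 589-fold (95% counting interval 106 to 23292), with an adjusted p of 0.0371. Cdkn1c, which encodes the inhibitor p57, ran at 0, 19.6 and 91.8 CPM in neurons and 31, 57.7 and 82.3 CPM in dividing cells and did not pass (log2 change -1.49 ± 1.52, adjusted p = 0.778). Of 16 glycolytic genes 1 fell, against 1.06% of all genes. It was Hk2, the inducible hexokinase, with 3 against 7451 counts, a ratio of 1024-fold (95% counting interval 350.3 to 4968) and an adjusted p of 0.0294. The median change of the glycolytic list, -0.84, lay close to that of all genes.

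**Figure D3:**
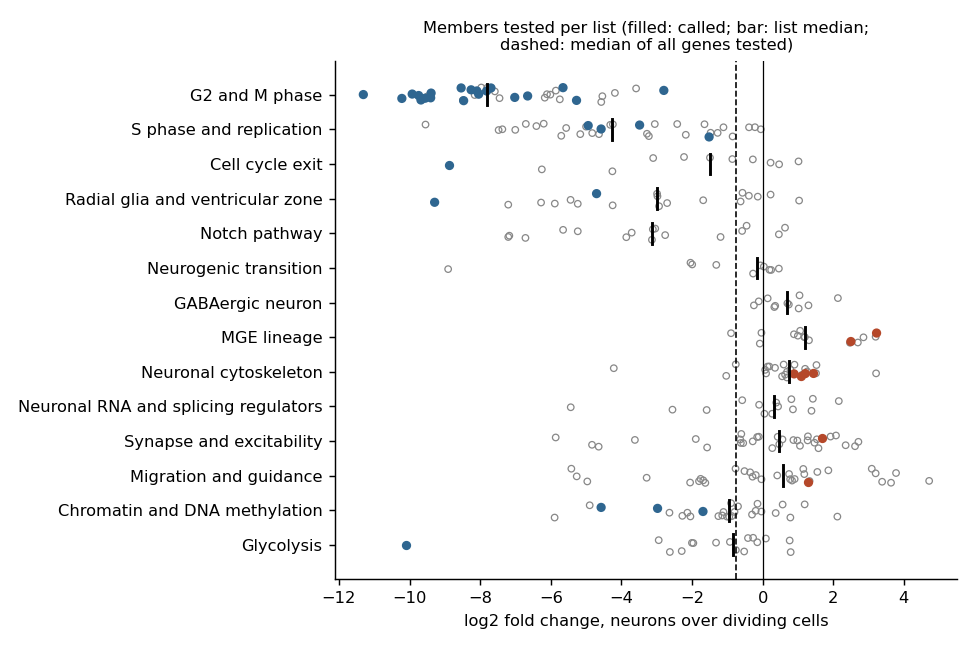
Points give the log2 change in neurons over dividing cells of each tested member of 14 gene lists; filled points passed the test (blue lower, red higher), bars mark list medians and the dashed line marks the median of all genes tested, -0.75. The G2 and M phase list has its median at -7.81 with 20 of 36 members called, and the filled points on the positive side belong to the MGE lineage, cytoskeleton, synapse and migration lists.

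Of 19 radial glial genes tested, 2 fell, against 1.06% of all genes, and none rose. Their median change was -2.98, against -0.75 over all genes. Fabp7, a fatty acid binding protein of radial glia, ran at 1.2, 4.23 and 44.9 CPM in neurons and 33.3, 141 and 626 CPM in dividing cells (log2 change -4.70 ± 0.92, adjusted p = 0.0347). It was lower in neurons on 6 of 6 chips, and the groups overlapped because dividing cells differed widely between chips. Mfge8, a secreted glycoprotein of radial glia, ran at 0, 0.185 and 20.9 CPM and 8.88, 198 and 354 CPM (log2 change -9.29 ± 1.70, adjusted p = 0.0294). Other radial glial genes did not pass, several of them low or scattered between chips. Ddah1, an enzyme of arginine metabolism, changed by -5.89 ± 1.53 (adjusted p = 0.0998), and Slc1a3, the glial glutamate transporter, by -6.28 ± 2.95 (adjusted p = 0.407). Nes, the intermediate filament nestin, ran at 0, 26.9 and 354 CPM in neurons and 60, 102 and 171 CPM in dividing cells (log2 change -2.98 ± 2.21, adjusted p = 0.666), and Vim, the filament vimentin, changed by -0.62 ± 0.44 (adjusted p = 0.647). Sox2, a factor that keeps neural progenitors, stood at 72.8, 116 and 208 CPM in neurons and 108, 128 and 234 CPM in dividing cells, with a change of -0.14 ± 0.63 (adjusted p = 0.961) that turned positive under several settings. None of 16 Notch pathway genes passed, with a median of -3.12 and 14 of 16 negative. The targets Hes1 and Hes5, which hold back neurogenesis, were rare even in dividing cells. Hes1 ran at 0, 0.0627 and 0.977 CPM in neurons and 0.716, 2.89 and 22.2 CPM in dividing cells (log2 change -5.24 ± 1.73, adjusted p = 0.18), and Hes5 changed by -7.20 ± 2.92 (adjusted p = 0.241). The ligand Dll1 changed by -5.65 ± 2.02 (adjusted p = 0.227) and the receptor Notch1 by -3.04 ± 1.57 (adjusted p = 0.474). None of 4 Hedgehog pathway genes tested passed, among them Gli3, the pathway's main repressor, which held separate groups at 0, 0.196 and 1.92 CPM and 2.57, 29.5 and 74.1 CPM (log2 change -6.74 ± 1.85, adjusted p = 0.117).

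Genes that rose in neurons were fewer and changed less, and 6 of the 17 belonged to the MGE lineage and neuronal cytoskeleton lists. Of 15 MGE lineage genes tested 2 rose, against 0.176% of all genes, and none fell, with a median change of 1.20. Maf, a transcription factor of MGE-derived interneurons, ran at 44.2, 727 and 2128 CPM in neurons and 32.7, 75.4 and 107 CPM in dividing cells (log2 change 3.23 ± 0.66, adjusted p = 0.04). It was higher in neurons on 6 of 6 chips, but chip 193, at 44.2 CPM in neurons, lay within the range of the dividing cells. Npy, a neuropeptide of a subset of cortical interneurons, ran at 378, 654 and 1138 CPM and 46.8, 87.8 and 321 CPM (log2 change 2.50 ± 0.42, adjusted p = 0.0266), without overlap. Nxph1, a secreted ligand of neurexins found in inhibitory neurons, showed the largest change of the genes that rose. It ran at 71.8, 323 and 489 CPM in neurons and 1.41, 9.08 and 71.6 CPM in dividing cells (log2 change 5.07 ± 0.98, adjusted p = 0.0347), and the lowest neuron chip, at 71.8 CPM, stood just above the highest dividing chip, at 71.6 CPM. Runx1t1, a transcriptional corepressor, ran at 227, 1876 and 3168 CPM and 108, 244 and 1039 CPM (log2 change 2.28 ± 0.38, adjusted p = 0.0266), and Zfp536, a zinc finger repressor of neuronal differentiation, at 72.2, 407 and 1157 CPM and 13.8, 168 and 338 CPM (log2 change 2.01 ± 0.41, adjusted p = 0.0383). Both overlapped between the classes while being higher in neurons on each of the 6 chips.

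The other MGE factors did not pass. Lhx6, the factor that directs MGE interneuron migration and fate, ran at 417, 1183 and 2896 CPM in neurons and 414, 472 and 624.6 CPM in dividing cells (log2 change 1.20 ± 0.34, adjusted p = 0.137). It was higher in neurons on 5 of 6 chips, the exception being chip 193, and it stood above 400 CPM in the dividing cells of every chip. Sox6, which acts downstream of Lhx6, ran at 192, 646 and 746 CPM and 111, 162 and 607 CPM (log2 change 1.31 ± 0.38, adjusted p = 0.149), higher in neurons on 6 of 6 chips. Zeb2, which steers MGE cells toward the cortex, changed by 0.89 ± 0.26 (adjusted p = 0.147) and Erbb4, the neuregulin receptor of migrating interneurons, by 3.20 ± 1.22 (adjusted p = 0.278). Nkx2-1 was present in both classes, at 2.01, 112 and 181 CPM in neurons and 99.6, 140.0 and 234 CPM in dividing cells (log2 change -0.89 ± 0.90, adjusted p = 0.77). Chip 98 gave the lowest neuron value, 2.01 CPM, where the other neuron chips overlapped the dividing cells. Lhx8, a factor of cholinergic and other ventral neurons that is spelled LHX8 in the table, varied from 0.131 to 144 CPM in neurons and from 0.0559 to 104 CPM in dividing cells, with a change of -0.08 ± 1.55 (adjusted p = 0.994).

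None of 11 GABAergic genes passed, although 9 of 11 changes were positive and the median was 0.70. Gad1, which makes GABA, ran at 326, 626 and 1098 CPM in neurons and 38, 174 and 367 CPM in dividing cells (log2 change 2.13 ± 0.55, adjusted p = 0.097). The sums of the dividing class thus held Gad1 transcripts, with a higher mean in its cells high in Tubb3 and Dcx (given below). Chip 193 was the exception to a higher Gad1 level in neurons. Gad2 changed by 0.70 ± 0.35 (adjusted p = 0.453). The homeobox gene Dlx5 changed by 1.02 ± 0.46 (adjusted p = 0.386), Dlx1 by -0.06 ± 0.31 (adjusted p = 0.965) and Dlx2 by -0.27 ± 0.69 (adjusted p = 0.932); Dlx1 and Dlx2 act early in GABAergic progenitors, and Dlx5 acts downstream of them. Dlx1 stood at 184, 483 and 629 CPM in neurons and 277, 462 and 667 CPM in dividing cells, and its sign changed with the scaling of the libraries. Dlx6os1, the noncoding RNA Evf2 that is antisense to Dlx6, was chosen for the text after its value was seen, to complete the genes that rose. It ran at 1717, 2727 and 3597 CPM in neurons and 953, 1324 and 1625 CPM in dividing cells (log2 change 0.96 ± 0.19, adjusted p = 0.0388), without overlap. The library kit does not mark strand, so reads of Dlx6os1 and of Dlx6 cannot be told apart where the genes overlap. None of 10 neurogenic transition genes passed. Insm1, a zinc finger factor of basal progenitors, changed by -1.995 ± 1.005 (adjusted p = 0.46). Insm1 was lower in neurons on 6 of 6 chips, at 2.6, 31.5 and 41.9 CPM against 62.5, 86.6 and 160.4 CPM, without overlap.

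Of 26 neuronal cytoskeleton genes tested 4 rose, against 0.176% of all genes, and none fell. Their median change was 0.74, against -0.75 over all genes, and 3 of 26 changes were negative, against 6742 of 9680. The direction of this list is no independent finding, since the neuron gate used Tubb3 and Dcx, genes of the same kind. Tuba1a, the main alpha tubulin of young neurons, ran at 6019.6, 8955 and 14992 CPM in neurons and 2573, 3915 and 5966 CPM in dividing cells (log2 change 1.21 ± 0.14, adjusted p = 0.0049). The classes did not overlap, and Tuba1a passed whichever chip was left out. Reads shared with the near-identical Tuba1b and Tuba1c make its level uncertain. Stmn2, a microtubule-destabilising protein of growth cones, ran at 404, 1074 and 1882 CPM and 186, 371 and 574 CPM (log2 change 1.44 ± 0.27, adjusted p = 0.0294). Map1b, a microtubule-associated protein of growing axons, ran at 3749, 6638 and 9738 CPM and 2952, 3253 and 4771 CPM (log2 change 0.89 ± 0.15, adjusted p = 0.0279), and Dpysl3, a mediator of growth cone collapse, at 1489, 2489.8 and 4744 CPM and 693, 1351 and 1725 CPM (log2 change 1.10 ± 0.20, adjusted p = 0.0294). These overlapped between the classes and were higher in neurons on 6 of 6 chips. Map2, of dendrites, changed by 0.90 ± 0.26 (adjusted p = 0.149), Mapt, of axons, by 1.51 ± 0.84 (adjusted p = 0.518), and Tubb2b, a beta tubulin with a close copy in Tubb2a, by 1.52 ± 0.42 (adjusted p = 0.122); none of the 3 passed.

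Genes of synapse, adhesion and migration gave single calls, where 0.176% of all genes tested rose. Nrxn3, a presynaptic adhesion molecule, was the 1 of 31 synapse and excitability genes that rose (list median 0.47), at 243, 1653 and 3206 CPM in neurons and 218, 457 and 810.4 CPM in dividing cells (log2 change 1.68 ± 0.33, adjusted p = 0.0347). Ncam1, the neural cell adhesion molecule, was the 1 of 32 migration and guidance genes that rose (median 0.58), at 211, 1194 and 1897 CPM and 138, 425 and 642 CPM (log2 change 1.29 ± 0.27, adjusted p = 0.0442). The groups overlapped for both. A pair of guidance receptors had larger and fully separate differences that missed the threshold. Robo2, a Slit receptor, ran at 96.7, 537 and 957 CPM in neurons and 15.5, 42.1 and 77.6 CPM in dividing cells (log2 change 3.38 ± 0.73, adjusted p = 0.0511), and Epha5, an ephrin receptor, at 129, 236 and 431 CPM and 2.85, 23.9 and 76.8 CPM (log2 change 3.78 ± 0.89, adjusted p = 0.0666). Rnd2, a small GTPase that promotes migration of young neurons, changed by 3.09 ± 1.02 (adjusted p = 0.203). The remaining genes that rose were outside the lists. Gng2, a G protein gamma subunit, ran at 445, 704 and 1131 CPM in neurons and 107, 248 and 317 CPM in dividing cells (log2 change 1.71 ± 0.33, adjusted p = 0.0341), without overlap. Mapk10, the neuronal JNK3 kinase, changed by 1.72 ± 0.34 (adjusted p = 0.0344) and Nsg2, a neuronal vesicle protein, by 1.77 ± 0.33 (adjusted p = 0.0305). Rufy3, which promotes axon growth, and Nrep were named after their values were seen, to complete the genes that rose: Rufy3 ran at 708, 779 and 876 CPM in neurons and 117, 306 and 453 CPM in dividing cells (log2 change 1.56 ± 0.31, adjusted p = 0.038), without overlap, and Nrep changed by 1.16 ± 0.18 (adjusted p = 0.0192).

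**Figure D4:**
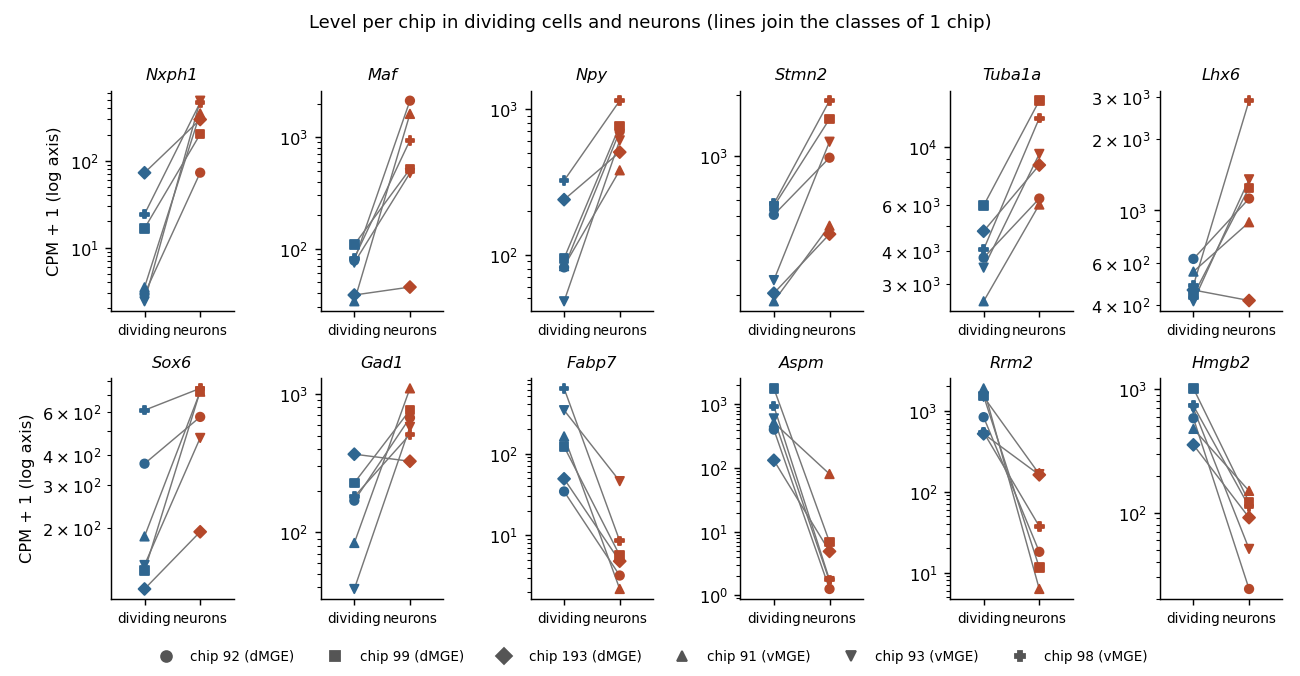
Level per chip (CPM + 1, log axis) of 12 genes in dividing cells (blue) and neurons (red), with a line joining the classes of the same chip and a marker shape per chip. Nxph1, Npy and Tuba1a are higher in neurons on all 6 chips, Lhx6 and Gad1 on 5 with chip 193 as the exception, and Fabp7, Aspm, Rrm2 and Hmgb2 are lower on all 6.

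Regulators of the switch from progenitor to neuron were examined as pairs, since neural progenitors and neurons use different members of several complexes. None of the 10 members tested passed. The 6 progenitor members all had negative changes: Ptbp1, the splicing repressor that neurons replace with Ptbp2, changed by -1.27 ± 1.28 (adjusted p = 0.774), and Rest, the repressor of neuronal genes, by -2.93 ± 3.30 (adjusted p = 0.801). The chromatin remodeller subunits Phf10, Actl6a and Ss18 changed by -2.75, -0.66 and -0.68, with adjusted p-values of 0.512, 0.819 and 0.856, and the chloride importer Slc12a2 changed by -3.91 ± 2.22 (adjusted p = 0.532). The 4 neuron members tested had positive changes, with Ptbp2 at 0.11 ± 0.38 (adjusted p = 0.952). The neuronal subunits Ss18l1, Actl6b and Dpf1 changed by 2.62, 0.94 and 0.47, with adjusted p-values of 0.582, 0.921 and 0.932. Their approximate standard errors, up to 3.30 for Rest, were as large as most of these changes. Of 14 neuronal RNA and splicing regulators none passed (median 0.33). Celf4, an RNA-binding protein of neurons, had separate groups at 229.6, 264 and 516 CPM in neurons and 88.9, 117 and 141 CPM in dividing cells (log2 change 1.38 ± 0.44, adjusted p = 0.188), and Rbfox2, a splicing factor, changed by 1.42 ± 0.46 (adjusted p = 0.199).

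The dividing class was described further by the level of Tubb3 and Dcx. On the 6 chips, 122 dividing cells had both at 50 CPM or more and 117 did not, and the values that follow are means ± SD of the chip levels, with no test, since Tubb3 and Dcx chose the cells. Fabp7 stood at 373 ± 406 CPM in dividing cells low in Tubb3 or Dcx, at 95.9 ± 97.3 CPM in those high in both and at 10.7 ± 16.8 CPM in neurons. Slc1a3 stood at 175 ± 153, 12.1 ± 20.1 and 16.6 ± 36.4 CPM in the same order. These glial genes were highest in the dividing cells with little Tubb3 or Dcx, above the high cells on 6 of 6 chips for Fabp7 and on 5 for Slc1a3. Sox2 and Vim did not share this. Sox2 was higher in the high cells (157 ± 51.9 CPM) than in the low cells (134 ± 75.1 CPM) on 5 of 6 chips, and Vim stood at 407 ± 268 CPM in the low and 399 ± 260.2 CPM in the high cells. Genes of interneuron identity ran opposite to Fabp7. Lhx6 stood at 185 ± 132, 802 ± 224 and 1326 ± 898 CPM, Sox6 at 69.5 ± 81.7, 474 ± 459.9 and 567 ± 226 CPM, and Gad1 at 68.8 ± 131, 279.7 ± 144 and 648 ± 249 CPM. Sox6 and Gad1 were higher in the dividing cells high in Tubb3 and Dcx than in the others on 6 of 6 chips, and Lhx6 on 5. Nxph1 was all but absent from the low cells, at 0.0928 ± 0.119 CPM, against 34.5 ± 41.5 CPM in the high cells and 311 ± 162 CPM in neurons. Maf (21 ± 24.3, 118 ± 76.8 and 923 ± 721 CPM) and Npy (59.9 ± 77.9, 253 ± 289 and 681 ± 289 CPM) had means in the same order. Both were higher in neurons than in the high dividing cells on 6 of 6 chips, and higher in the high than in the low cells on 4 chips for Maf and on 5 for Npy. Stmn2 stood at 209 ± 156, 557 ± 326 and 1073 ± 631 CPM.

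Cell cycle genes were not all alike in this respect. Top2a stood at 3190.1 ± 2205 CPM in the low and 3211 ± 1751 CPM in the high dividing cells. Aspm, a G2 and M phase gene, was higher in the high cells (1092 ± 1098 CPM) than in the low cells (393 ± 245 CPM) on 5 of 6 chips. The replication gene Mcm5 was lower in the high cells (99.8 ± 59.6 CPM) than in the low cells (343 ± 90.9 CPM) on 6 of 6 chips, and lower still in neurons (17.1 ± 26.4 CPM) on 6 of 6. Rrm2 was lower in the high than in the low cells on 5 chips (996 ± 520.2 and 1360.3 ± 731 CPM) and lower in neurons than in the high cells on 6 of 6 (64.4 ± 73.8 CPM). When neurons were tested against the low dividing cells alone, 7 genes were called higher and 30 lower, 36 of these 37 among the 120, on fewer dividing cells. That test reused cells of the main test, and Tubb3 and Dcx chose both sides, so the overlap is no independent finding.

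**Figure D5:**
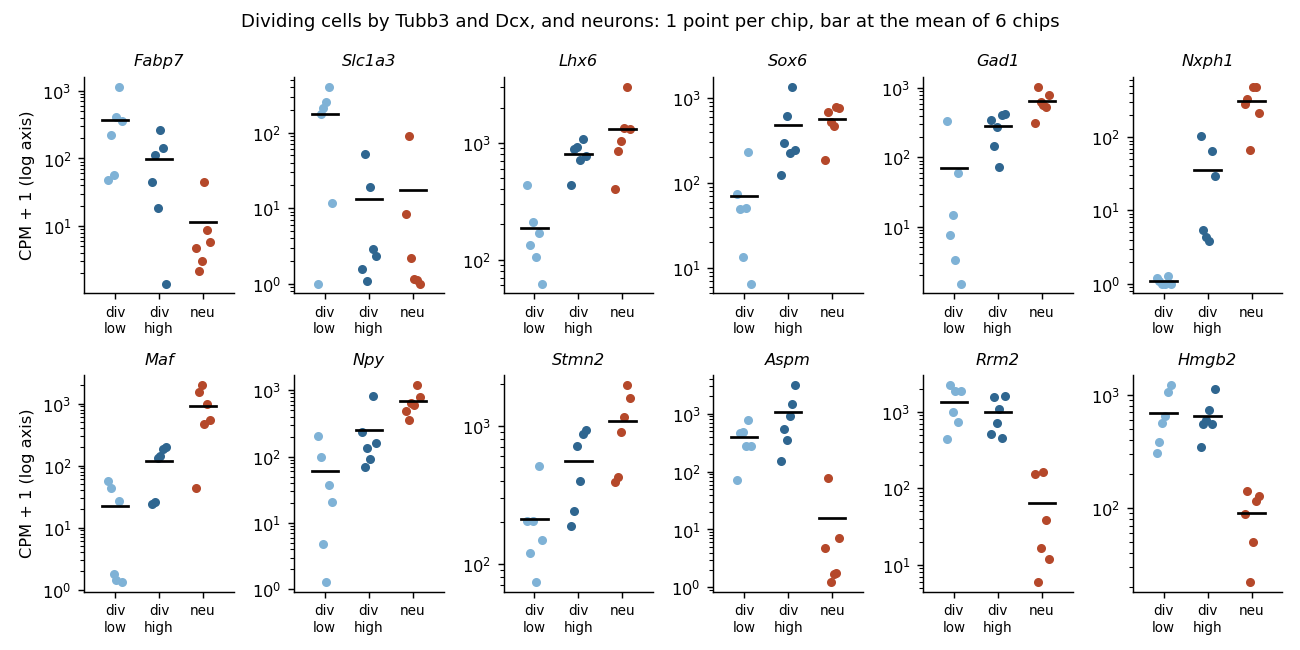
Level per chip (CPM + 1, log axis) of 12 genes in dividing cells low in Tubb3 or Dcx (div low, 117 cells), dividing cells high in both (div high, 122 cells) and neurons (neu, 93 cells), with a bar at the mean of the 6 chips. Fabp7 and Slc1a3 are highest in the low dividing cells, Lhx6, Sox6, Gad1, Nxph1, Maf, Npy and Stmn2 have means that increase from left to right, and Aspm, Rrm2 and Hmgb2 are high in both kinds of dividing cell.

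Whether the change between classes differed by region or age was tested with interaction terms. Between vMGE and dMGE, 0 of 9680 genes passed edgeR's test (0.0%; 249 at an unadjusted p under 0.05), while DESeq2, run on the same sums, called 489. Among genes of at least 20 CPM the smallest unadjusted p belonged to Ube2c, the ubiquitin-conjugating enzyme of mitotic exit, whose change was lower in the vMGE by 7.02 ± 1.19 on the log2 scale (unadjusted p = 0.000104, adjusted p = 1). Between E14.5 and E12.5 in the MGE, 0 of 10036 genes passed (0.0%; 449 at an unadjusted p under 0.05, 540 by DESeq2; smallest adjusted p 0.275, for Atp6v1h), in a fit in which the E12.5 MGE had 1 chip per region. Maf ran at 1031 CPM in neurons and 74.4 CPM in dividing cells at E14.5 and at 47.5 and 26.5 CPM at E12.5, a difference in change of 4.39 ± 1.40 (adjusted p = 0.974). Npy ran at 738 and 155.6 CPM at E14.5 and at 248.6 and 193.8 CPM at E12.5, a difference of 2.04 ± 1.66 (adjusted p = 0.995). All E12.5 chips are numbered 160 or higher, and of the 6 E14.5 MGE chips in this fit only chip 193 is. There Maf ran at 44.2 CPM in neurons and 37.3 CPM in dividing cells, so age and chip number are told apart by that chip alone. Between MGE and CGE at E14.5, 0 of 10036 passed (0.0%; 295 at an unadjusted p under 0.05, 406 by DESeq2). This comparison and the previous one share the E14.5 MGE chips. Nrxn3 had the smallest unadjusted p there among genes of at least 20 CPM, with a change larger in the MGE by 2.56 ± 0.57 (adjusted p = 1). Lhx6 in the CGE ran at 548.8 CPM in neurons and 148.5 CPM in dividing cells, and the change in the MGE minus that in the CGE was -0.86 ± 1.10 (adjusted p = 1). With so few chips per group these tests do not show that the changes were alike.

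Chips 193 and 194 are the only E14.5 MGE chips numbered 160 or higher, as all E12.5 MGE chips are, that held 5 or more cells of each class, and the neurons of chip 194 departed from those of the earlier chips. Chip 194, a vMGE chip with 8 neurons, was not among the 6 chips tested. On CPM by library size, its neurons held 0.368 CPM of Nxph1 where its dividing cells held 105.9, 0.553 CPM of Maf where its dividing cells held 27.9, and 17.1 CPM of Nrxn3 where its dividing cells held 336.4. Lhx6 stood at 178 CPM in its neurons and 423 CPM in its dividing cells, and Gad1 at 126.01 and 716 CPM. Fitted on chips 193 and 194 alone, the changes of these 3 genes took the opposite sign to that on the 6 chips. They were -2.66 ± 5.36 for Nxph1, -2.55 ± 4.09 for Maf and -1.99 ± 1.52 for Nrxn3. Chip 193, one of the 6, did not turn. Its neurons and dividing cells held 357 and 88.9 CPM of Nxph1, 53.2 and 46.4 CPM of Maf, and 292 and 271 CPM of Nrxn3. The sign of the fit also turned for Nsg2, Rufy3 and Dpysl3, which were higher in the neurons of chip 193, and no gene was called. On chip 194 itself those genes were lower in neurons, as were Npy (334 CPM against 384 CPM in dividing cells), Stmn2 (151 and 249 CPM) and Gng2 (166 and 336 CPM). Runx1t1, Zfp536 and Map1b were lower there too. Of the 17 genes that rose on the 6 chips, only Dlx6os1, Ncam1, Nrep, Mapk10 and Tuba1a were higher in its neurons. The margin was small for Mapk10 (160.5 and 158.5 CPM) and Tuba1a (2983 and 2869 CPM). Dlx6os1, at 2890 CPM in the neurons of chip 194 and 1115 CPM in its dividing cells, kept its direction. Kif11, at 0.921 CPM in the neurons and 162.9 CPM in the dividing cells of that chip, did so too. Aspm (96.7 and 73.8 CPM), Mfge8 (107 and 4.24 CPM) and Smc4 (415 and 412 CPM) did not. The other genes named above that fell were lower in its neurons. For Ddias (65.03 and 65.28 CPM), Kif20b (239 and 247 CPM) and Spc25 (501 and 630 CPM) the gap was small. Chip number is used here as the labels give it, and what differed between the earlier and later chips was not tested.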

How the data were processed

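Single MGE cells of CD1 embryos were captured on Fluidigm C1 chips and made into Smart-seq v4 and Nextera libraries, per the labels' protocols. The authors deposited raw counts per gene and cell, without molecular identifiers; STAR 2.4.0, HTSeq 0.6.1 and build mm9 are named in the submitters' processing notes. A deposited table of normalized values was not used. Names for 32620 of 37310 gene IDs came from GENCODE.

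Cells were gated as stated in the report, and raw counts were summed per chip and class where each class had at least 10 cells. The fit used edgeR 4.0.16 (R 4.3.3; TMM, filterByExpr, robust quasi-likelihood) with chip as a block, since both classes of a chip shared its preparation, per the chip number in the sample titles. The 7 gate genes were left out of filtering, fitting and adjustment. Genes were called at an adjusted p under 0.05. Interactions used 6 chips (region) or 14 chips of 6 groups (age, MGE against CGE). Shares and depth were compared with permutation tests (exact where a group had fewer than 10 chips, otherwise 100000 resamples). limma 3.58.1 and DESeq2 1.42.0 served as alternatives. The fit was tested on simulated data. Total counts per E14.5 MGE chip ran from 28145271 to 58708377, and counts per cell that passed from 50319 to 2297390 (median 519875). No 2 of the 2669 count columns were identical, and each cell has its own library, so no droplet barcodes are shared.

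The members, gene lists and tests were chosen with earlier results of these data known. Named genes were the 8 called genes of largest change in each direction, with at least 50 CPM, that kept their sign on at least 9 in 10 chips, up to 4 per list role by adjusted p, both members of each switch pair, and 21 preset genes; not all of them are printed. Genes outside this rule are marked in the text.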

Additional observations from a re-analysis of the deposited data

Results flagged for a closer look

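Of 104 sets of chip values examined, most of them of 6 chips, 7 held a chip whose gap to the others exceeded Dixon's limit. By chance about 1 in 20 would. Dividing cells of chip 99 held the most counts per cell, 883984 against 429158 to 579105 on the other chips. Dividing cells of chip 98 had the highest mitochondrial share, 6.44% against 1.41% to 2.73%. The change between neurons and dividing cells on the log2(CPM + 1) scale stood apart for 5 genes. The mitotic kinase gene Ttk was at -4.63 on chip 193 and between -7.73 and -6.80 on the other chips. Hes1 was at -4.36 on chip 98 against -1.99 to -0.78, Nkx2-1 at -5.69 on chip 98 against -1.06 to 0.15, and Dpf1, a neuronal chromatin remodeller subunit, at -2.55 on chip 98 against 0.46 to 2.04. Insm1 was at -4.64 on chip 92 against -2.05 to -0.91. Of the 7, 4 belong to chip 98, whose neuron sum held the fewest cells (10), as did that of chip 91.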

How the results depend on the processing

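Precision is limited by 6 chips with 10 to 20 neurons each. Against 17 genes called higher and 103 lower, DESeq2 called 171 and 1784, limma on log2(mean CPM + 1) 30 and 380, limma on log2(mean CPM + 10) 258 lower, the test without a low count filter 159 lower, and the test on 10 chips with at least 5 cells per class 514 lower. Fewer were called with cells of 2000 genes and 200000 counts (0 and 0 on 4 chips; 681 genes at an unadjusted p under 0.05), thinned cells (4 and 36 on 5 chips), a neuron gate at 200 CPM (2 and 20 on 5 chips), dividing cells without high Tubb3 and Dcx (7 and 30), no gene-rich cells (11 higher), chips below 160 alone (61 lower), no chips above 4% mitochondrial counts (2 and 16), and no replicate block (4 higher, with 83 lower). Chosen after seeing the data, equal cell numbers gave 1 and 31, and chips from 160 on with at least 5 cells gave 0 and 0 (138 at an unadjusted p under 0.05). Without 1 chip in turn the counts ran from 1 to 18 higher and from 7 to 61 lower. Among the 6 chips, the setting of chips below 160 is the same fit as leaving out chip 193. The setting without chips above 4% mitochondrial counts is the same fit as leaving out chip 98. The replicate block pairs both classes of a chip, and without it 70 of the 120 genes were called. The cause of these shifts was not tested, beyond the fewer cells or chips some settings hold.

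Interactions called by edgeR without a low count filter numbered 1 for region, and with dividing cells without high Tubb3 and Dcx 7 for MGE minus CGE; DESeq2 called 489 (region), 540 (age; the count shifts by a few genes with the numerical library) and 406 (MGE minus CGE). The age term has no value without chip 173 or 185, with cells of 2000 genes, with neurons at 200 CPM or on chips below 160. The rise of the neuron share from E12.5 to E14.5 was 8.24 points with 3 of 5 dividing genes (adjusted p = 0.0602), 5.63 on chips from 160 on, and 7.29 to 9.93 without 1 chip. The neuron share of vMGE minus dMGE ran from -2.50 to 1.36 without 1 chip, and the dividing share was -2.29 without chips 191 and 192. Counts per cell, neurons minus dividing cells, were -86210 with cells of 2000 genes, -94423 with 3 of 5 dividing genes, and -32791 to 69609 without 1 chip. The mitochondrial difference ran from -0.688 to 0.254 points without 1 chip and was -1.13 with chip means.

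Of 1139 alternative values for 48 called genes, 607 kept their side of the threshold, 6 reversed and the others kept the direction alone. Of 1095 for 46 genes not called, 975 stayed, 62 passed and 58 reversed. Both totals count the fits without chip 193 and without chip 98 more than once, since other settings repeat them. On chips from 160 on with at least 5 cells the log2 change was -2.66 for Nxph1, -2.55 for Maf, -0.063 for Nsg2, -1.99 for Nrxn3, -0.28 for Rufy3, -0.42 for Dpysl3, 0.15 for Mcm5, 1.40 for Ddah1, 2.33 for Slc1a3, -1.27 for Gad1, -0.52 for Dlx5, -0.62 for Lhx6, -0.92 for Erbb4, -5.36 for Mapt, -1.73 for Tubb2b, -0.81 for Robo2, -0.18 for Epha5, 0.23 for Cdkn1c and -2.35 for Ss18l1. With cells of 2000 genes it was 0.040 for Sox2, 0.41 for LHX8, 0.29 for Rest and 0.048 for Ccnd1. With thinned cells it was 0.080 for Sox2, 0.024 for Dlx1 and 0.65 for LHX8. With neurons at 200 CPM it was 0.19 for Sox2, 0.037 for Dlx1, 0.65 for LHX8 and 0.28 for Ccnd1. With dividing cells without high Tubb3 and Dcx it was 0.016 for Sox2, 0.90 for LHX8 and 0.28 for Ss18. Without chips above 4% mitochondrial counts it was 0.13 for Sox2, 0.57 for LHX8 and 0.23 for Ccnd1. Dlx1 was at 0.0038 with DESeq2 and with its size factors, 0.073 with 5 cells per class, 0.10 with 3 of 5 dividing genes and 0.0054 on chips below 160. LHX8 was at 0.20 with 5 cells per class, 0.24 on chips below 160, 0.30 with no replicate block and 2.02 with equal cell numbers. Ptbp2 was at -0.0896 and -0.0827 by limma, -0.53 with 5 cells per class, -0.13 on chips below 160 and -0.22 with equal cell numbers. Dlx2 was at 0.12 with equal cell numbers, Ccnd1 at 0.16 with 3 of 5 dividing genes and 0.46 with no replicate block, and Ptbp1 at 0.48 with no replicate block. Without 1 chip, Sox2 ran from -0.37 to 0.13, Dlx1 from -0.23 to 0.0054, LHX8 from -0.84 to 0.58, Ptbp2 from -0.16 to 0.32, Ccnd1 from -1.18 to 0.40 and Actl6b from -0.0097 to 1.72.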

Other observations

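Cells in neither class were not all alike. On the 6 chips of the gene test there were 100 of them (12 to 22 per chip), given here as chip means ± SD with no test, since the gates chose them. Their Fabp7 level was 743 ± 1322 CPM, from 17.7 to 3410 CPM, above the mean of either kind of dividing cell, and Slc1a3 stood at 146 ± 218 CPM. They also held Top2a at 405 ± 207 CPM, between the levels of neurons and of dividing cells, and Dcx at 1174 ± 947 CPM. Gli3 stood at 91.9 ± 134 CPM in these cells, against 0.432 ± 0.696 CPM in neurons. Lhx6 stood at 788 ± 622 CPM and Gad1 at 286 ± 208 CPM.

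Of all 870 E14.5 MGE cells that passed, 273 had Tubb3 and Dcx at 50 CPM but Top2a or Mki67 at 10 CPM or more, more than the 130 neurons. In the 21 neurons with 1 division gene at 10 CPM, that gene was Ccnb1 in 12 (9.23% of the 130 neurons), Bub1 in 8 (6.15%) and Plk1 in 1.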
